A study of Xenopus laevis with 18 samples.

Results

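Cerberus (cer1.S), endodermin (a2m.S) and darmin.L encode secreted proteins made in the endoderm of the Xenopus laevis embryo. They were followed through every probe set whose single gene symbol in the array annotation is one of these symbols: 2 for cer1.S, 1 for a2m.S and 2 for darmin.L, that is 5 of 32475 probe sets and 3 of 11303 genes with a symbol of their own. The suffixes .L and .S name the long and short copies (homeologs) that the allotetraploid frog keeps of many genes, and 0 probe sets carried the symbols cer1.L, a2m.L or darmin.S. The genes were chosen with earlier readings of their differences between the arms and of their course in control explants known. Those values are therefore given as descriptions, with no test. A stage change of a member in explants labelled RA-depleted equals its control change plus the shift in arm difference. The p-values and ranks printed for these changes are therefore descriptions too, and no independent support.

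The samples were lateral marginal zone explants, the flank of the gastrula from which lateral mesoderm and the kidney field arise, taken from embryos in which every blastomere had been injected at its equator at the 4-cell stage. Embryos of the arm labelled RA-depleted received mRNA for GFP and for cyp26, whose enzyme degrades retinoic acid (RA). Those labelled control received GFP mRNA alone. All explants were cut at early gastrula. The early gastrula group was kept for 1 h and the mid-gastrula group for 3 h, both at 20 °C. The early neurula group stayed in culture overnight at 14 °C, so stage, time in culture and temperature cannot be told apart for it. Each stage had 3 arrays labelled RA-depleted and 3 labelled control, 18 in total. The labels describe them as biological replicates without saying which animals or days a replicate number shared, and name neither the cyp26 gene nor the species it came from.

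Cerberus is secreted by the anterior endoderm that lies under the future head and binds Nodal, BMP and Wnt ligands outside the cell, which keeps their signals low there. Endodermin belongs to the family of alpha-2-macroglobulin, large secreted protease inhibitors, and is used in Xenopus as a marker of the whole endoderm rather than of its anterior part. Darmin is a secreted protein of the M20 peptidase family that was described from Xenopus endoderm.

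The values were the authors' log2 probe set intensities, which ran from 2.49 to 14.59, and the array medians lay between 5.85 and 5.91 for the early gastrula arrays and between 5.47 and 5.51 for all later ones. A gene of the injected enzyme's family differed widely between the arms. The bright probe set of cyp26a1.S was lower in the arm labelled RA-depleted, in each of the 9 same-numbered pairs of arrays. Its mean log2 differences were -4.79, -5.34 and -4.14 in stage order. The other, dimmer cyp26a1.S probe set was higher there by 0.72, 1.39 and 1.38 and the homeolog cyp26a1.L by 1.82, 1.99 and 1.53. Which of these probe sets, if any, reads the injected mRNA and which the embryo's own was not tested, so their signs cannot be set against each other. Of 28 genes of RA response and metabolism, cyp26a1.S among them, 4 were higher and 1 lower at early neurula in the arm labelled RA-depleted at a limma adjusted p under 0.05, beside 0.373% and 0.0523% of all probe sets. With the replicate number as a block in the fit 7 were higher and 1 lower. With each pair of a stage as a block 11 were higher and 3 lower, and more of all probe sets were called under either block. Without a block the higher ones were the reductase gene dhrs3.L (2.98), ripply2.2.S (0.91), hoxa3.S (0.86) and znf703.S (0.71), and the lower one was cyp26a1.S. Whether RA was in fact lower in the arm labelled RA-depleted was not tested, so these directions are no reading of what RA loss does. The list averaged 8.01 to 8.10 on arrays labelled RA-depleted and 7.67 to 7.90 on those labelled control. Every direction between the arms below follows the labels, and all of them would be opposite had the labels been swapped. Of 46 endoderm transcription factor genes, 38 lay above the array median at early gastrula in the arm labelled RA-depleted and 37 in the arm labelled control, and of 20 lateral and intermediate mesoderm genes 8 did so in each. At early neurula 26 endoderm factors lay above it in the arm labelled RA-depleted and 27 in the arm labelled control. Of the mesoderm genes 14 did so in the arm labelled RA-depleted and 11 in the arm labelled control. In RNA from whole explants, fewer cells of a type and less RNA per cell cannot be told apart. A group size of 3 arrays bounds the precision of every value.

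cer1.S was bright through gastrulation and far lower at early neurula. Its brighter probe set (Xl2.368.1.S1_at) read 12.60, 12.51 and 12.53 at early gastrula on arrays 1, 2 and 3 labelled RA-depleted, against 12.70, 12.69 and 12.71 on those labelled control. At mid-gastrula it read 12.73, 12.58 and 12.51 on arrays labelled RA-depleted, against 12.94, 12.81 and 12.58 on those labelled control. At early neurula the readings were 6.83, 7.53 and 7.77 on arrays labelled RA-depleted, against 7.40, 7.71 and 8.05 on those labelled control. Every gastrula array lay far above every neurula array in both arms. In explants labelled RA-depleted the gene fell by 5.23 on the log2 scale between mid-gastrula and early neurula (-5.23, SE 0.19, 37.6-fold, limma adjusted p = 2.29e-11), in each of the 3 replicate numbers. That was the 2nd steepest fall of all 32475 probe sets in this contrast. In explants labelled control the same step measured -5.06 (33.3-fold), the 3rd steepest there. Between early and mid-gastrula the change in explants labelled RA-depleted was 0.059 (95% interval -0.35 to 0.47, adjusted p = 0.827), and in those labelled control it was 0.080.

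The other cer1.S probe set (Xl2.33990.1.S1_at) was dimmer and followed the same course. In early gastrula explants it read 7.80, 6.86 and 7.27 on arrays labelled RA-depleted, against 8.24, 7.26 and 7.53 on those labelled control. In mid-gastrula explants it read 7.82, 6.90 and 6.74 on arrays labelled RA-depleted, against 8.22, 7.30 and 7.22 on those labelled control. In neurula explants it read 4.50, 4.05 and 4.26 on arrays labelled RA-depleted, against 5.03, 4.15 and 4.50 on those labelled control. Array 1 was the highest of its group in 6 of 6 groups. At early gastrula the SD was 0.47 in the arm labelled RA-depleted and 0.51 in the arm labelled control, where the brighter probe set had 0.047 in the arm labelled RA-depleted and 0.011 in the arm labelled control. The fall between mid-gastrula and early neurula measured -2.88 in explants labelled RA-depleted (SE 0.36, 7.38-fold, adjusted p = 5.05e-06) and -3.02 in those labelled control. Across the 18 arrays the cer1.S probe sets correlated at r = 0.957, a description over arrays that share their libraries and stages. The fall was smaller on the dimmer one, and RMA gives no background call by which its neurula readings could be judged.

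**Figure D1:**
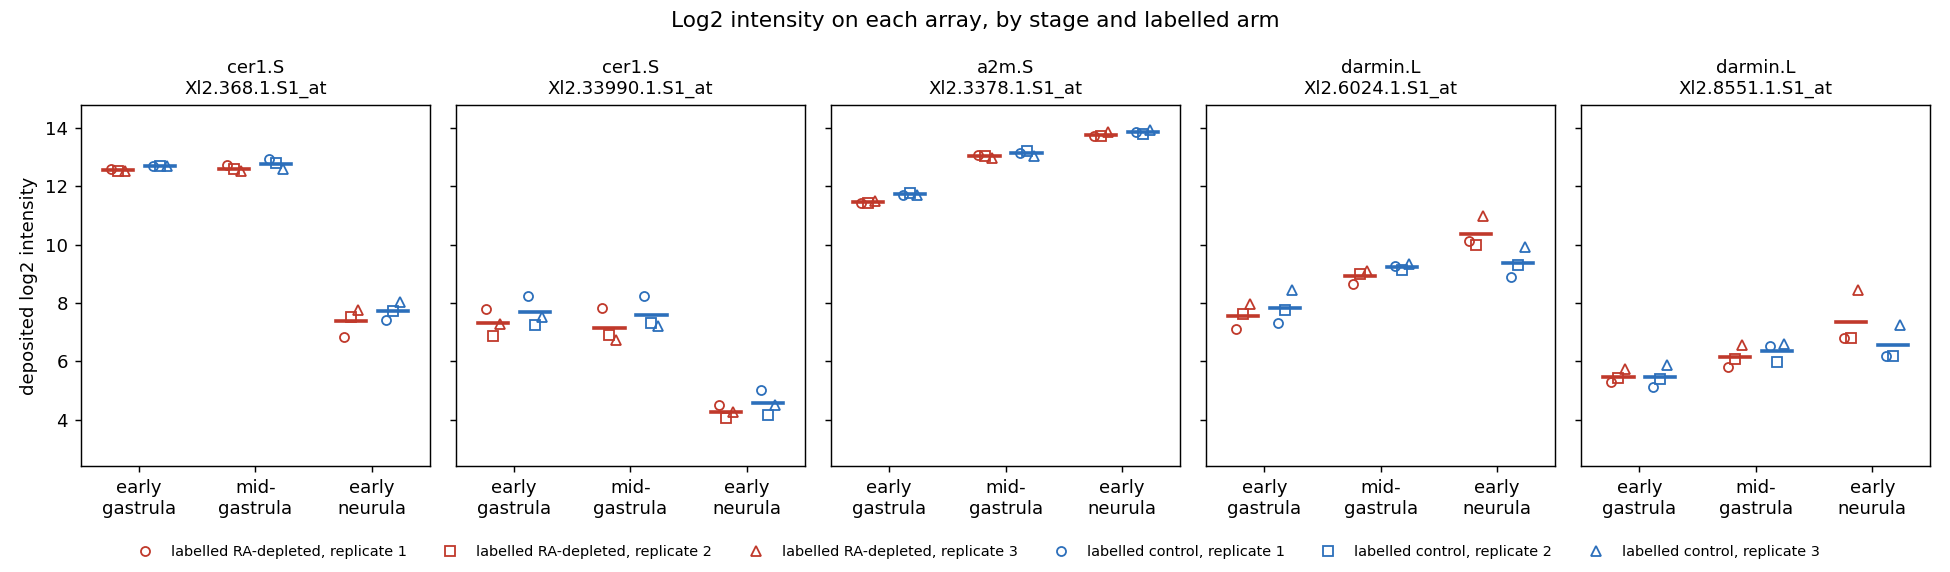
Deposited log2 intensity (y axis) of the 5 probe sets at each stage (x axis); symbols are arrays 1 to 3, red labelled RA-depleted and blue labelled control, and bars are means of 3 arrays. cer1.S holds at gastrula and drops at early neurula, a2m.S climbs at both steps, and darmin.L reaches 10.36 in neurula explants labelled RA-depleted against 9.37 in those labelled control.

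a2m.S rose at both steps and did so with little spread. Its probe set (Xl2.3378.1.S1_at) read 11.44, 11.42 and 11.50 at early gastrula on arrays labelled RA-depleted, against 11.72, 11.79 and 11.70 on those labelled control. At mid-gastrula it read 13.07, 13.06 and 12.96 on arrays labelled RA-depleted, against 13.15, 13.23 and 13.04 on those labelled control. At early neurula it read 13.73, 13.74 and 13.85 on arrays labelled RA-depleted, against 13.85, 13.80 and 13.94 on those labelled control. The arms did not overlap at early gastrula and overlapped at the later stages. In explants labelled RA-depleted a2m.S rose 2.97-fold between early and mid-gastrula (log2 1.57, SE 0.069, adjusted p = 3.69e-10). It rose 1.68-fold further by early neurula (log2 0.75, SE 0.069, adjusted p = 2.49e-07), each time in all 3 replicate numbers. In explants labelled control the steps measured 1.40 and 0.72. Over the whole course the gain was 2.32 in explants labelled RA-depleted, between 2.29 and 2.35 in the 3 replicate numbers, and 2.13 in those labelled control, between 2.01 and 2.24.

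darmin.L rose as well, and its arms parted at early neurula. The brighter probe set (Xl2.6024.1.S1_at) read 7.11, 7.62 and 7.98 at early gastrula on arrays labelled RA-depleted, against 7.32, 7.75 and 8.46 on those labelled control. At mid-gastrula it read 8.66, 8.98 and 9.08 on arrays labelled RA-depleted, against 9.26, 9.13 and 9.32 on those labelled control. At early neurula it read 10.11, 9.99 and 10.98 on arrays labelled RA-depleted, against 8.88, 9.31 and 9.91 on those labelled control. At that stage the lowest array labelled RA-depleted stood just above the highest labelled control. In explants labelled RA-depleted darmin.L rose 2.53-fold between early and mid-gastrula (log2 1.34, SE 0.33, adjusted p = 0.00298) and 2.73-fold between mid-gastrula and early neurula (log2 1.45, SE 0.33, adjusted p = 0.00129). In explants labelled control the first step measured 1.40 and the second 0.13. The whole course came to 2.79 in explants labelled RA-depleted and to 1.53 in those labelled control.

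The dimmer darmin.L probe set (Xl2.8551.1.S1_at) rose at the second step. Its readings were 5.28, 5.42 and 5.72 at early gastrula on arrays labelled RA-depleted, against 5.11, 5.40 and 5.88 on those labelled control. At mid-gastrula they were 5.82, 6.07 and 6.56 on arrays labelled RA-depleted, against 6.51, 5.96 and 6.59 on those labelled control. At early neurula they were 6.80, 6.78 and 8.44 on arrays labelled RA-depleted, against 6.20, 6.19 and 7.25 on those labelled control. Array 3 stood apart from the other neurula arrays in both arms. In explants labelled RA-depleted the second step measured 1.19 (SE 0.40, 2.29-fold, adjusted p = 0.0182). Without array 3 of neurula explants labelled RA-depleted it measured 0.64 and was not called (adjusted p = 0.106). It was not called either without array 1 of the mid-gastrula explants of that arm (1.03, adjusted p = 0.0689). The first step measured 0.67 and did not pass (SE 0.40, adjusted p = 0.180), and passed with the replicate number as a block (adjusted p = 0.0217). In explants labelled control the steps measured 0.89 and 0.19. The darmin.L probe sets correlated at r = 0.937 across the 18 arrays.

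The second step of the members stood within a large turnover of the explants' RNA. In explants labelled RA-depleted 12.1% of all probe sets rose and 38.1% fell between early and mid-gastrula, where 2 of 5 member probe sets rose and 0 fell. Between mid-gastrula and early neurula 32.7% rose and 26.4% fell, where 3 of 5 member probe sets rose and 2 fell, so most probe sets were called at this step and being called sets the members little apart. These arrays are not independent of those labelled control, since same-numbered arrays of the arms deviated together. Each member change in explants labelled RA-depleted also equals the control change plus the shift in arm difference, and both bore on the choice of the members. The p-values of these changes are therefore no independent support. The median of all probe sets moved by -0.18 between early and mid-gastrula in the arm labelled RA-depleted as deposited, by -0.016 after repeated quantile normalization and by 0.20 after median centring. The rises of a2m.S and of the brighter darmin.L probe set passed under each of these scalings, and the small first-step changes of cer1.S turned sign under at least one of them.

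**Figure D2:**
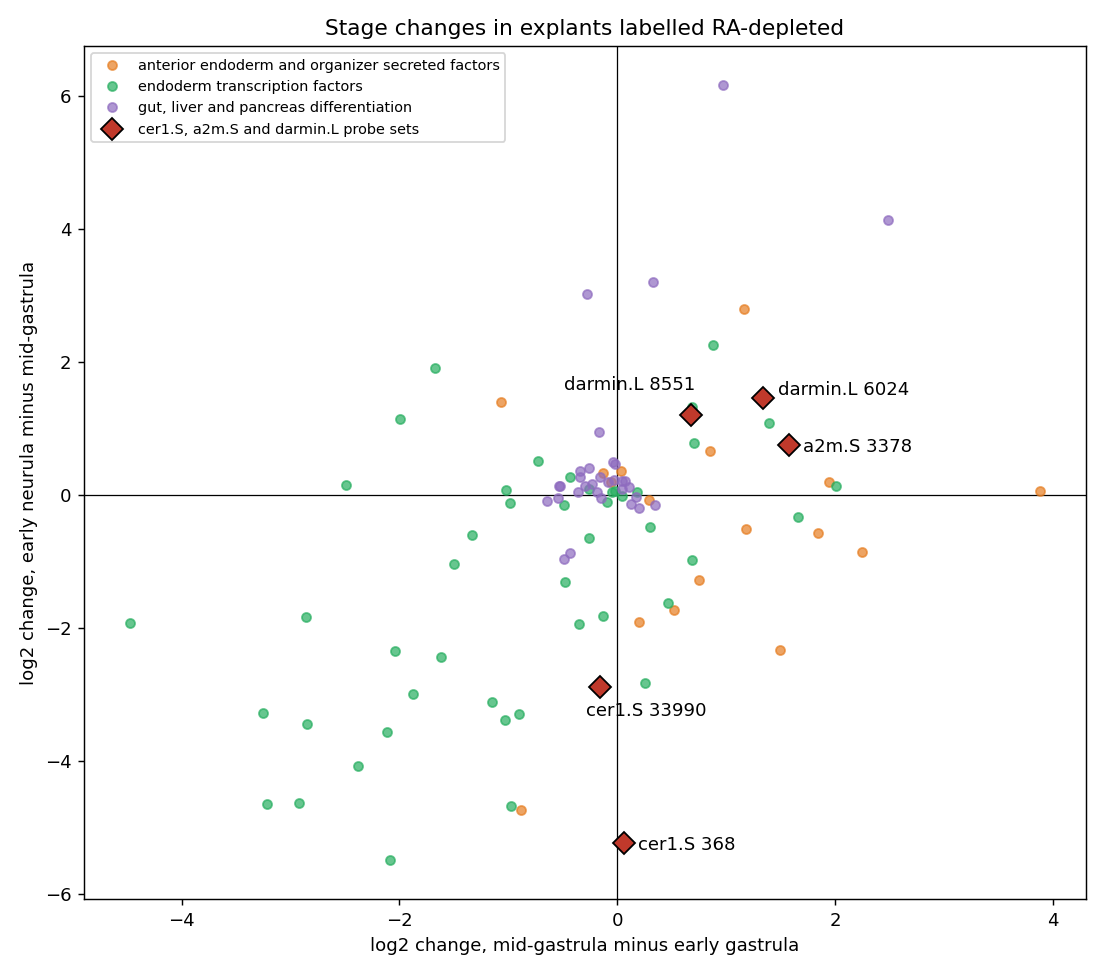
Log2 change between early and mid-gastrula (x axis) and between mid-gastrula and early neurula (y axis) in explants labelled RA-depleted; diamonds are the member probe sets and circles are genes of 3 endoderm lists. a2m.S (1.57 and 0.75) and darmin.L (1.34 and 1.45) lie at the upper right, and cer1.S (0.059 and -5.23) at the bottom.

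Between the arms, cer1.S and a2m.S read lower in explants labelled RA-depleted at every stage. Their probe sets Xl2.368.1.S1_at, Xl2.33990.1.S1_at and Xl2.3378.1.S1_at were each lower in all 9 same-numbered pairs. The 9 pairs are 3 replicate numbers at 3 stages and are not independent. With group means subtracted, same-numbered arrays of an arm correlated across stages at 0.36 to 0.69. These differences were known when the genes were chosen, and the share of all probe sets lower in all 9 pairs was not computed. The brighter cer1.S probe set differed by -0.15, -0.17 and -0.34 at the 3 stages in order (SE 0.19 each). The dimmer one differed by -0.37, -0.43 and -0.29 (SE 0.36 each), and a2m.S by -0.28, -0.11 and -0.092 (SE 0.069 each). These SEs come from the fit without the replicate block, so they include spread that same-numbered arrays share. The early gastrula pairs of the dimmer cer1.S probe set were -0.44, -0.40 and -0.26 apart. The dimmer cer1.S probe set ranged from -0.61 to -0.083, -0.76 to -0.10 and -0.50 to -0.054 in stage order with any 1 array left out. The outer values came without array 1 of either arm at the gastrula stages, and without array 2 or array 1 labelled control at early neurula. Array 1 was the highest of its group in 6 of 6 groups for this probe set. Leaving out 1 array breaks its pair, so these ranges hold differences between replicate numbers too. The neurula value of the brighter one ranged from -0.54 (without array 3 labelled RA-depleted) to -0.072 (without array 1 labelled RA-depleted), and none of these turned sign. The largest of the mean differences was 1.34-fold, and the arms overlapped in all but 2 of these 9 comparisons. At early gastrula 2 of 5 member probe sets had arms that did not overlap with RA-depleted lower, cer1.S (Xl2.368.1.S1_at) and a2m.S, against 2.94% of all probe sets. At mid-gastrula darmin.L (Xl2.6024.1.S1_at) was the 1 such probe set, against 2.75% of all.

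darmin.L changed sides between the gastrula and the neurula. The brighter probe set differed by -0.27 in early gastrula and -0.33 in mid-gastrula explants, lower in 3 of 3 pairs at each stage in explants labelled RA-depleted, and by 0.99 at early neurula, higher in 3 of 3 pairs (SE 0.33 each). The pairs at early neurula were 1.23, 0.67 and 1.06 apart, and the means 1.99-fold. The SE, from the fit without the replicate block, includes spread that same-numbered arrays share. The dimmer probe set gave 0.014, -0.21 and 0.79, with all 3 neurula pairs higher (0.60, 0.59 and 1.19). Its gastrula pairs went both ways: 0.17, 0.027 and -0.16 at early gastrula, and -0.69, 0.10 and -0.031 at mid-gastrula. At early neurula the brighter probe set was the 1 member whose arms did not overlap, against 4.4% of all probe sets with RA-depleted higher. These differences were part of what the genes were chosen by, and the percentages are background beside them. Without array 3 of early gastrula explants labelled control, the early gastrula difference of the brighter probe set was 0.036 in place of -0.27. Leaving out 1 array breaks its pair, and array 3 was the highest of its group in 6 of 6 groups for this probe set. The 3 pairs at early gastrula were -0.22, -0.12 and -0.48 apart. The neurula difference of the brighter probe set stayed between 0.68 and 1.26 whichever 1 of its 6 arrays was left out. That of the dimmer one ranged from 0.24 without array 3 labelled RA-depleted to 1.15 without array 3 labelled control. For the dimmer probe set too, array 3 was the highest in 6 of 6 groups.

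**Figure D3:**
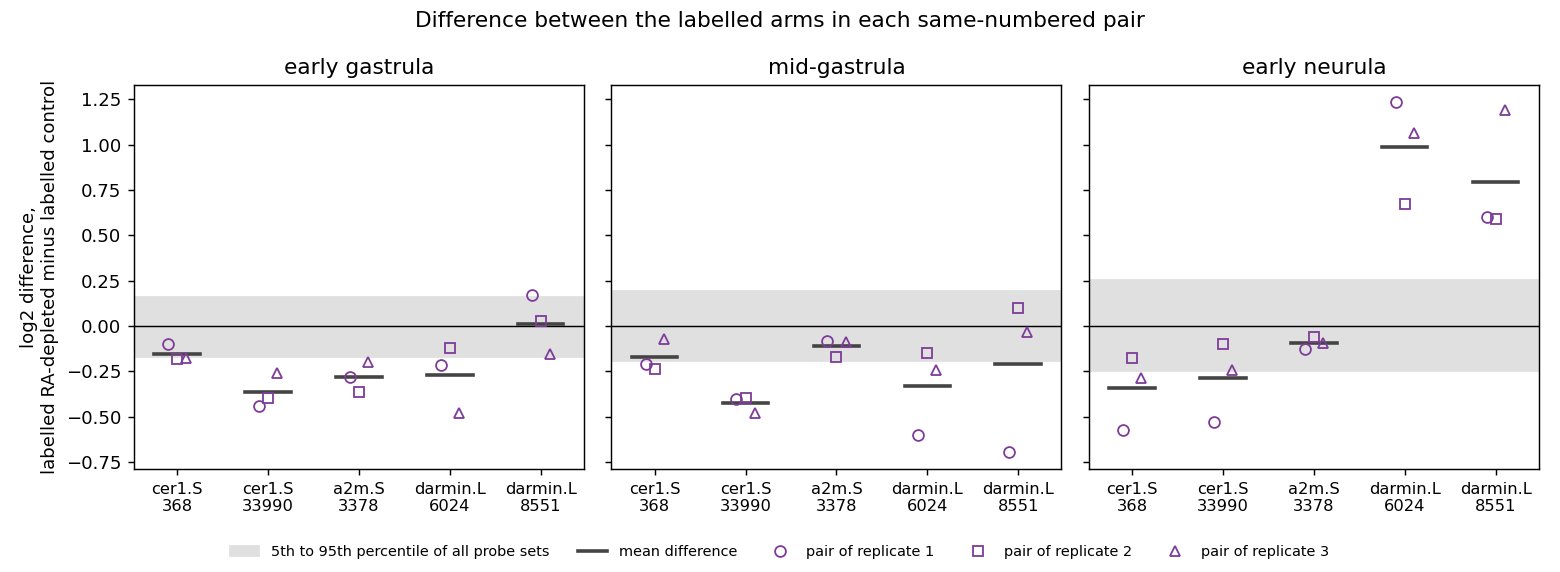
Log2 difference, labelled RA-depleted minus labelled control, of each same-numbered pair of arrays (symbols) and their mean (bar) for the 5 member probe sets at each stage; the grey band runs from the 5th to the 95th percentile of all probe sets. cer1.S and a2m.S pairs lie below 0 at all stages, and the neurula pairs of darmin.L lie between 0.59 and 1.23.

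The member probe sets carried the replicate number to different degrees. Array 3 was the highest of its group in 6 of 6 groups for both darmin.L probe sets, and array 1 in 6 of 6 for the dimmer cer1.S probe set. For a2m.S array 1 was highest in 1 group, array 2 in 2 and array 3 in 3. Over the 18 arrays a2m.S and darmin.L correlated at r = 0.88, cer1.S and a2m.S at -0.73, and cer1.S and darmin.L at -0.67, all of which share the 3 stages.

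The genes whose course was most like each member were ranked by Pearson's r over the 18 arrays among 5469 genes with a symbol whose group means spanned at least 1 log2 unit. For cer1.S they were marcksl1.S (r = 0.996), which encodes a protein kinase C substrate of the cell cortex, the transcriptional corepressor subunit drap1.L (0.993), the kinase anchoring protein akap12.L (0.993), the membrane glycoprotein basigin (bsg.L, 0.993) and the deaminase dctd.L (0.992). All held through gastrulation and were lower at early neurula, by less than cer1.S: marcksl1.S averaged 11.10 at early neurula, against 13.04 at mid-gastrula, in explants labelled RA-depleted. For a2m.S they were the cohesin subunit stag2.S (0.994), lsp1.S (0.993), the glycogen-targeting subunit ppp1r3c.1.L (0.993), LOC100653495 (0.993) and dedd2.L (0.992). Of these ppp1r3c.1.L changed most, from a mean of 3.99 at early gastrula through 7.63 at mid-gastrula to 9.31 at early neurula in explants labelled RA-depleted. For darmin.L the values were lower, with the focal adhesion protein zyxin (zyx.S) at 0.956, the Bcl2 relative bcl2l10.S at 0.947, the heparin-binding growth factor midkine (mdk.L) at 0.946, the homeobox factor pbx2.L at 0.945 and nkain4.S at 0.941. Each of these 5 also averaged higher in neurula explants labelled RA-depleted, by less than darmin.L: bcl2l10.S averaged 5.32 there and 4.84 in those labelled control. Likeness over 3 stages mostly ranks the stage course and was not tested. The ranking used the neurula arrays of both arms, so an arm difference shared with darmin.L there is partly built into it.

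**Figure D4:**
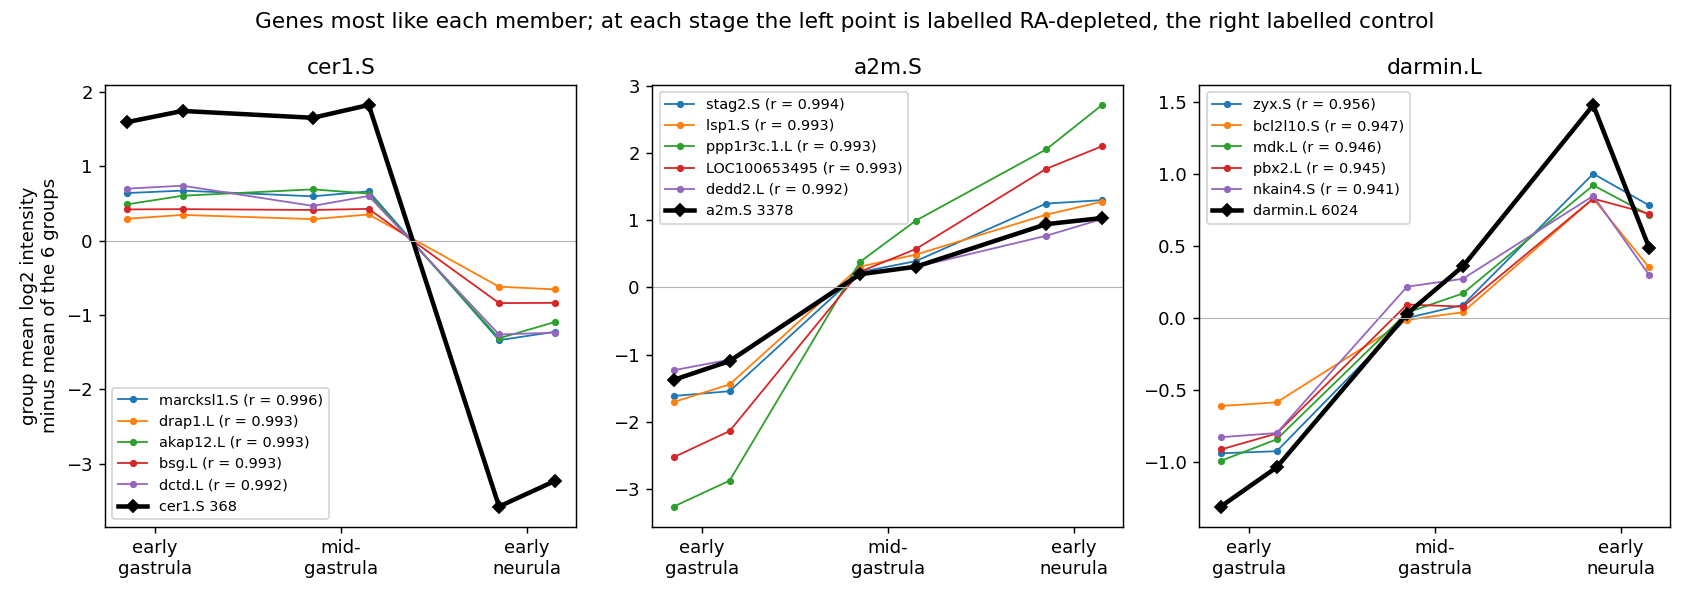
Group mean log2 intensity minus the mean of the 6 groups (y axis) by stage (x axis), for each member (black) and the 5 genes most like it; at each stage the left point is labelled RA-depleted and the right one labelled control. The course of cer1.S is a plateau and a drop, that of a2m.S a climb, and that of darmin.L a climb with the neurula point labelled RA-depleted on top.

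The ligands that Cerberus binds or that act in its pathways also turned over, in both arms. Their median change was -0.55 and then -0.088 in explants labelled RA-depleted, and -0.65 and then -0.12 in those labelled control. Over all probe sets it was -0.18 and 0.060 in the arm labelled RA-depleted, and -0.19 and 0.073 in the arm labelled control. Counts and changes by step, for this list and those of the next 3 paragraphs, are from explants labelled RA-depleted unless stated. These lists, like the members, were drawn up with earlier results known, and the members themselves are left out of each. Of 35 ligands and co-factors 6 rose and 19 fell between early and mid-gastrula (7 and 18 after quantile normalization, 9 and 12 after median centring), and 10 rose and 16 fell by early neurula. Of all probe sets 12.1% rose and 38.1% fell at the first of these steps, and 32.7% and 26.4% at the second. Over all 32475 the first step gave 6402 rises and 7435 falls after quantile normalization, and 12701 and 5657 after median centring. The Nodal ligand nodal2.L fell at both steps, by 3.07 and then by 2.28 on the log2 scale (-3.07 and -2.28, SE 0.26). The Nodal antagonist lefty.S fell by 4.16 in the first (-4.16, SE 0.29), before cer1.S fell in the second. The BMP ligand bmp7.2.L measured -5.01 in the second step (SE 0.32, adjusted p = 4.92e-09), alongside cer1.S, while bmp4.L rose by 0.75 (SE 0.22, adjusted p = 0.00736). Between the arms 1 of 35 was called both in mid-gastrula and in early neurula explants, the Cripto family co-receptor tdgf1.2.S, higher in explants labelled RA-depleted (0.95 and 1.12, SE 0.13 each), beside 0.0154% of all probe sets called higher and 0.00308% lower at mid-gastrula. At early neurula 0.373% of all probe sets were called higher and 0.0523% lower. These calls are from the fit without the replicate block. With the replicate number as a block 2 of the 35 were higher and 0 lower at early neurula, and with each pair of a stage as a block 2 and 5. Mid-gastrula calls were few and moved with single arrays, numbering 6 over all probe sets and 2 to 5 with any 1 of the 6 arrays left out.

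Genes of the members' protein families, listed together with other protease inhibitors and peptidases, moved in both directions, as did the probe sets at large. Of all probe sets 12.1% rose and 38.1% fell at the first step, and 32.7% and 26.4% at the second. Of 4 cystine knot antagonists of the Cerberus family 0 rose and 3 fell at the first step (0 and 2 under either other scaling) and 1 rose and 2 fell at the second. dand5.S, the left-right Nodal antagonist also called Coco, fell at each step, by 1.51 and by 2.46 (-1.51 and -2.46, SE 0.21), so that unlike cer1.S it was already lower at mid-gastrula. Of 21 genes of the alpha-2-macroglobulin family and serine protease inhibitors 4 rose and 4 fell at the first step (6 and 0 under either other scaling), and 9 rose and 4 fell at the second. As a2m.S did, its relative a2ml1.L rose at both steps, by 3.79 and then 3.12 (SE 0.17 each), and complement c3.L by 6.11 and then 1.63 (SE 0.29 each). The last list held 9 genes of the M20 family and of other peptidases, such as dpp4.L and cpe.S. Of these 1 rose and 0 fell at the first step, and 3 rose and 4 fell at the second (1 and 5 after quantile normalization). acy3.L, an aminoacylase whose tie to the M20 family was not checked, was higher by 0.56 (SE 0.16) at the first step. It changed by -1.68 (SE 0.16) at the second, where darmin.L rose. On the same list cpe.S (2.51, SE 0.23) and the dim cndp1.L (0.34, SE 0.12, from 3.30 to 3.64) were called higher at that step, and cndp2.S lower (-0.50, SE 0.21).

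Other secreted factors of the anterior endoderm and organizer took several courses. Of 17 genes 8 rose and 1 fell at the first step (10 and 1 after quantile normalization, 13 and 1 after median centring), and 5 rose and 5 fell at the second (4 and 6 after quantile normalization). The shares of all probe sets were 12.1% and 38.1% at the first step, and 32.7% and 26.4% at the second. The Wnt antagonist frzb.S measured -4.74 at the second step (SE 0.37, adjusted p = 3.52e-08), and its homeolog frzb.L -1.92 (SE 0.24), where the cer1.S probe sets measured -5.23 and -2.88. dkk1.S, another Wnt antagonist, measured 1.49 and then -2.34 (SE 0.33 each). sfrp1.L, a further Wnt antagonist, rose by 3.88 at the first step (SE 0.24, adjusted p = 9.27e-09), and igf3.L, an insulin-like growth factor, by 2.79 at the second (SE 0.36, adjusted p = 7.81e-06).

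More endoderm transcription factors fell than rose at each step, while a few gut and liver genes rose steeply. The median change of the 46 factors was -0.82 and then -0.81, and in explants labelled control -0.74 and then -0.62. That of the 32 gut, liver and pancreas genes was -0.15 and then 0.15, and in explants labelled control -0.10 and then 0.18. Of 46 factors 6 rose and 27 fell at the first step (7 and 25 after quantile normalization, 11 and 21 after median centring) and 7 rose and 23 fell at the second, where 38.1% and 26.4% of all probe sets fell at the first and second step. The steepest fall among these factors was that of the homeobox gene bix1.2.S at the first step (-4.48, SE 0.23) and of eomes.S at the second (-5.50, SE 0.17). The endoderm inducers mix1.S (-3.22 and then -4.65, SE 0.17 each) and mixer.S (-2.93 and then -4.64, SE 0.18 each) fell at both. Of the factors that rose at the first step, tbx6.L (2.01, SE 0.22) is better known from paraxial mesoderm, cdx2.L (1.39, SE 0.19) from posterior tissue, and foxa2.L (1.65, SE 0.24) from endoderm and axial mesoderm. Of 32 gut, liver and pancreas genes 3 rose and 11 fell at the first step (4 and 4 after quantile normalization, 15 and 0 after median centring), and 13 rose and 3 fell at the second (9 and 4 after quantile normalization). Beside these falls stand the shares of all probe sets given above, and 12.1% and 32.7% of all probe sets rose at the first and second step. The liver-secreted fetub.S rose by 6.16 (SE 0.58) and transferrin (tf.L) by 4.14 (SE 0.58) at the second step, in the same samples in which a2m.S and darmin.L rose.

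Between the arms these 3 endoderm lists, 95 genes in all, gave 0 calls by limma at either gastrula stage. Of all probe sets 0.00308% were called lower at early gastrula, and 492 there and 742 at mid-gastrula had an unadjusted p under 0.05. At early neurula 2 of the 95 were higher and 1 lower in explants labelled RA-depleted, beside 0.373% of all probe sets called higher and 0.0523% lower. Higher were the Wnt antagonist sfrp2.S (1.22, SE 0.19, adjusted p = 0.00524) and lhx1.L (3.99-fold, adjusted p = 0.00234), a homeobox factor of the organizer that also marks the kidney field. The T-box factor eomes.L was lower (-0.78, SE 0.15, adjusted p = 0.0373). With the replicate block 4 were higher and 2 lower: the protease inhibitor ambp.L (1.86, adjusted p = 0.00159 with the block and 0.194 without) and the pioneer factor foxa1.L (0.54, adjusted p = 0.0336 and 0.997) joined the higher, and the maternal T-box inducer vegt.S (-1.08, adjusted p = 0.00451 and 0.122) the lower. With only the neurula arrays in the fit 0 were higher and 0 lower. Without array 1 or without array 2 of those labelled RA-depleted eomes.L was not called and 0 were lower, and without array 3 of those labelled control 4 were higher. The list medians at early neurula were -0.014 for the secreted factors, -0.11 for the transcription factors and -0.016 for the gut, liver and pancreas genes, against -0.0052 for all probe sets and 0.99 and 0.79 for the darmin.L probe sets. foxa1.L, a factor of the gut tube, changed sides as the brighter darmin.L probe set did, reading -0.41, -0.53 and 0.54 at the 3 stages. It was singled out after its values were seen.

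**Figure D5:**
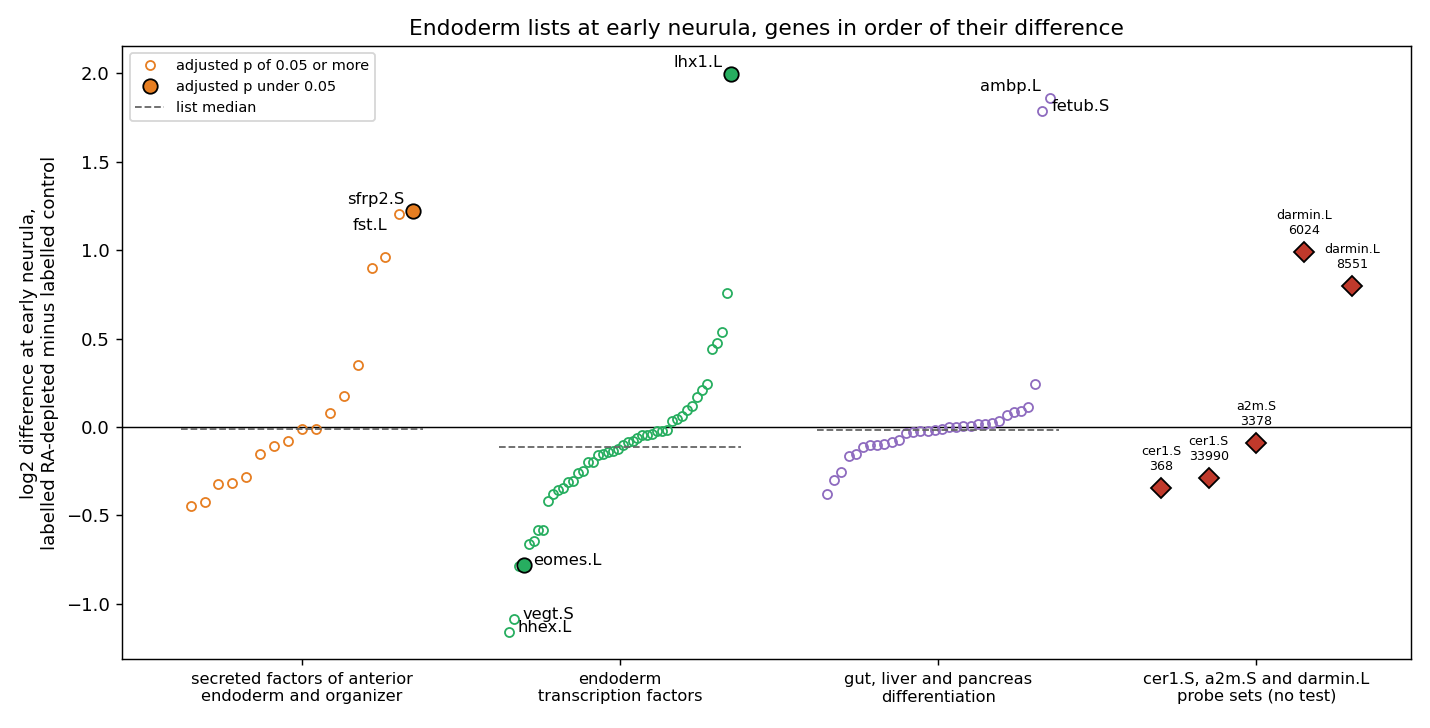
Log2 difference at early neurula, labelled RA-depleted minus labelled control (y axis), for the genes of 3 endoderm lists in order of size (x axis, by list) and for the member probe sets (diamonds, no test); filled circles passed limma's test. The darmin.L diamonds at 0.99 and 0.79 lie near sfrp2.S (1.22) and below lhx1.L, ambp.L (1.86) and fetub.S (1.79), and the cer1.S and a2m.S diamonds lie below 0.

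Markers of other tissues were read beside the member differences at early neurula, as the mean log2 level of each list on each array. The 46 endoderm transcription factors averaged 6.49 to 6.79 on arrays labelled RA-depleted and 6.58 to 6.87 on those labelled control. The 32 gut, liver and pancreas genes averaged 4.23 to 4.46 on arrays labelled RA-depleted and 4.19 to 4.37 on those labelled control. The 20 lateral and intermediate mesoderm genes averaged 6.73 to 6.99 on arrays labelled RA-depleted and 6.58 to 6.61 on those labelled control, ranges that did not overlap. Of these 2 of 20 were called higher and 0 lower, beside 0.373% and 0.0523% of all probe sets. The called genes were lhx1.L (3.99-fold) and mecom.L (2.18-fold). With the replicate number as a block 3 were called higher, and with each pair of a stage as a block 4, with 0 lower under either. The median difference of the list was 0.044, with 13 genes above 0 and 7 below. Its median gene level was 6.54 in the arm labelled RA-depleted and 6.90 in the arm labelled control. The higher array means therefore do not show a rise across the whole list. The 20 paraxial mesoderm and muscle genes averaged 8.06 to 8.47 on arrays labelled RA-depleted and 7.92 to 8.24 on those labelled control, with 0 called. The ranges of the arms overlapped for the 12 notochord, 20 neural and 19 epidermis genes too, with 1 neural gene called higher. These counts are from the fit without the replicate block. With the number as a block 1 paraxial gene was called higher. With each pair of a stage as a block 5 paraxial and 2 neural genes were higher, and 1 neural and 1 notochord gene lower. At mid-gastrula the fit without the block called 0 genes in each of these lists. The median difference there was 0.40 for epidermis, 0.26 for notochord and 0.17 for paraxial mesoderm. It was 0.046 for neural genes, -0.033 for lateral and intermediate mesoderm, -0.016 for endoderm factors and -0.0059 for gut, liver and pancreas genes. The epidermis list averaged 4.43 to 5.77 on mid-gastrula arrays labelled RA-depleted and 4.30 to 4.57 on those labelled control. The part of tissue make-up in the differences of cer1.S, a2m.S and darmin.L was not tested.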

How the data were processed

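RNA from Xenopus laevis explants was hybridised to Affymetrix arrays, from cRNA made with 6 µg of total RNA per the labels' protocols. The deposited values are log2 intensities for which the submitters' processing notes name RMA and the affy package. Their versions, and which arrays were normalized as one set, are not given in the sources used here. Of 32635 probe sets, 160 Affymetrix controls were left out. The array annotation gave 15495 probe sets 1 symbol, 279 several and 16701 none. Of the 2702 genes with several probe sets, the brightest stood for each gene other than the members. Names were checked in the gene table of the Xenopus_laevis_v10.1 assembly.

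limma 3.58.1 (R 4.3.3) fitted a mean per group to all 18 arrays, with moderated tests of their contrasts. P-values were adjusted by Benjamini-Hochberg over all probe sets within a contrast, and calls have an adjusted p under 0.05. The p-values rest on the spread between arrays within groups. Without the replicate block that spread includes deviations shared by same-numbered arrays, so it is not the spread within pairs. The fit was tested on simulated data with independent noise on each array. Deviations shared by same-numbered arrays were not simulated, so the simulation cannot judge the fit without the block on paired arrays. Figures used matplotlib 3.10.9 in Python 3.11.15. The members and lists were chosen with earlier results of these data known. Named were all member probe sets, up to 4 called genes per list, direction and contrast by size of change, and the 5 genes most like each member.

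To check whether replicate numbers pair the arrays, group means were subtracted. Same-numbered arrays of the arms then correlated across probe sets at 0.64 to 0.84 over the 3 stages, and other numbers at -0.48 to -0.11. Subtracting the group means pulls the other numbers below 0 where same-numbered arrays correlate above it, so their values are no separate evidence. The numbers were taken to pair the samples from the same-numbered correlations, on the data alone. The fit without the block is given first. The settings tried instead were the number as a block, pairs within a stage as blocks, only the groups compared, keeping the 18223 probe sets that reached a log2 of 6 on 3 or more arrays, quantile normalization run again, centring on array medians, a trended and robust eBayes, every probe set of a gene, and each array left out in turn.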

Additional observations from a re-analysis of the deposited data

Results flagged for a closer look

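The brighter darmin.L probe set (Xl2.6024.1.S1_at) was flagged because all its same-numbered pairs differed one way at the gastrula stages and the other way at early neurula. This rule was applied to the 5 member probe sets only, and the share of all probe sets that meet it was not computed. The dimmer darmin.L probe set (Xl2.8551.1.S1_at) did not meet it, since its gastrula pairs went both ways. Explants labelled RA-depleted read -0.27 relative to those labelled control at early gastrula and -0.33 at mid-gastrula, lower in 3 of 3 pairs each, and 0.99 at early neurula, higher in 3 of 3 pairs. The difference between the stages was not tested, since the arm differences of this gene were known when it was chosen.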

How the results depend on the processing

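Over 56 results, 661 of 710 values under the alternatives were scored as the same, and 49 were not. A tested value was the same if it kept its direction and side of the threshold. An untested difference was the same if it moved by less than the replicate SD, whatever its sign. A count was the same if its ratio to the reported count stayed within a fixed limit. Of the values with a test 6 turned sign, all first-step changes of cer1.S in explants labelled RA-depleted that had not passed. Of the values given without a test, small ones turned sign as well, among them the early gastrula arm differences of darmin.L. With the replicate number as a block, calls between the arms numbered 2, 12 and 370 in stage order, against 1, 6 and 138 without it, with 4 higher and 2 lower genes of the endoderm lists at early neurula. The first step of darmin.L (Xl2.8551.1.S1_at) in explants labelled RA-depleted then passed at 0.67 (adjusted p = 0.0217), and the block changed no other call among the members' stage changes in that arm. With each pair of a stage as a block the calls numbered 12, 61 and 1405, with 8 higher and 8 lower list genes at early neurula. With only the groups compared, the mid-gastrula arms gave 3 calls and the neurula arms 6, with 0 list genes higher and 0 lower. There the darmin.L probe set Xl2.8551.1.S1_at passed at the first step (0.67, adjusted p = 0.0356) and missed at the second (1.19, adjusted p = 0.0637). The dim filter left 13 list genes higher at the second step in explants labelled RA-depleted and 9 in those labelled control, and 10613 calls at the first step in those labelled control, with fewer probe sets tested.

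Repeated quantile normalization turned the first-step changes of cer1.S in explants labelled RA-depleted to -0.083 (Xl2.368.1.S1_at) and 0.19 (Xl2.33990.1.S1_at), and darmin.L (Xl2.8551.1.S1_at) passed at 1.04 (adjusted p = 0.0437). In explants labelled control it gave first-step changes of -0.072 for cer1.S (Xl2.368.1.S1_at), 1.26 for a2m.S and 1.27 for darmin.L (Xl2.8551.1.S1_at), and a second step of 0.56 for a2m.S. Median centring gave 0.22 for cer1.S (Xl2.33990.1.S1_at) and 1.05 for darmin.L (Xl2.8551.1.S1_at, adjusted p = 0.0360), with 39 list genes higher and 22 lower at the first step in explants labelled RA-depleted. In explants labelled control it gave 41 list genes higher, and 0.47 for cer1.S (Xl2.368.1.S1_at), 1.79 for a2m.S and 1.28 for darmin.L (Xl2.8551.1.S1_at). These first-step shifts go with the stage medians of the arrays.

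Leaving out each array gave 1 to 2, 2 to 5 and 99 to 218 calls between the arms in stage order (218 without array 3 labelled control), with 2 to 4 list genes higher and 0 to 1 lower at early neurula. The first step of cer1.S in explants labelled RA-depleted ranged from -0.49 to 0.090 (Xl2.33990.1.S1_at) and from -0.0011 to 0.11 (Xl2.368.1.S1_at). It reached 0.090 without array 1 at early gastrula, 0.052 without array 3 at mid-gastrula, and -0.0011 without array 1 at mid-gastrula. The second step of darmin.L (Xl2.8551.1.S1_at) ranged from 0.64 to 1.47, with adjusted p from 0.00989 to 0.106. The cause of these changes was not tested beyond what each setting leaves out.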
